A study of Rattus norvegicus with 32 samples.

Results

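Jun, Jund, Fos and Cebpb are 4 genes for transcription factors of the basic leucine zipper type, and their transcript levels were followed in rat lung over the days after a hemorrhage. They were chosen by gene symbol, and each had 1 probe, printed as 2 spots, among the 5022 genes that the array probes name. Male Sprague-Dawley rats of 280 to 300 g were fitted with arterial catheters and a telemetry device under isoflurane. After 7 to 10 days of recovery, 40% of the estimated blood volume was withdrawn. Lungs of bled rats were taken early (1, 3 and 6 h), at 16 h and late (24, 48 and 72 h). Sham rats carried the instruments and were not bled, and control rats had neither instruments nor bleeding. Bled rats were killed by exsanguination under Nembutal anesthesia. The labels do not describe the killing of unbled rats separately and leave the time of sham sampling unclear. The labels give a weight and no age. Each lung RNA was hybridized on a 2-colour spotted array against a pool of RNA from organs of untreated rats, which contained lung itself. A value is therefore a log2 ratio of lung to pool, centred on the median of its array, and 1 unit is a doubling.

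The 30 arrays used comprised 3 control, 5 sham, 3 at 1 h, 3 at 3 h, 5 at 6 h, 2 at 16 h and 3 each at 24, 48 and 72 h. Sham replicate 2 and 16 h replicate 3 were left out, because the median of 15 liver markers was 3.11 and 3.00 on them, against -1.79 to 0.21 on the others. The median of 12 lung markers lay between 0.78 and 2.12 on every array used, which also gave the direction of the ratio, lung over pool. Of the 13056 spots of an array 12151 to 12895 carried a value, and the number of arrays limits the precision. The 3 h replicate 2 array stood apart from the rest, with a spot-pair correlation of 0.618 against 0.704 or more on the other arrays used. The labels do not number the animals, so p-values measure the spread between these samples. In whole lung, fewer cells of a type and less RNA per cell cannot be told apart.

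AP-1 is a dimer. A Jun protein (Jun, JunB or JunD) pairs with another Jun or with a Fos protein, and the pair binds the DNA element TGACTCA or the closely related cyclic AMP element TGACGTCA. Jun and Fos are classical immediate early genes, whose transcripts rise and fall quickly after growth factors, cytokines or stress act through MAP kinases, whereas Jund is transcribed more steadily. Cebpb encodes C/EBPβ, a related leucine zipper factor of the acute phase response, which lung epithelium and macrophages express.

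Promoter sequence is shown for Cebpb and Jund because these members were found in a table of rat promoters from RefSeq (build GRCr8), which allows the elements that AP-1 and related factors bind to be searched for. Each run is the 250 bases before the annotated start, written 5′ to 3′ on the strand of the gene, and capitals mark TGACG or its reverse complement CGTCA, the core of the cyclic AMP element. The Cebpb run is chr3:176816755-176817004 on the plus strand and the Jund run is chr16:18769772-18770021 on the minus strand.
Cebpb: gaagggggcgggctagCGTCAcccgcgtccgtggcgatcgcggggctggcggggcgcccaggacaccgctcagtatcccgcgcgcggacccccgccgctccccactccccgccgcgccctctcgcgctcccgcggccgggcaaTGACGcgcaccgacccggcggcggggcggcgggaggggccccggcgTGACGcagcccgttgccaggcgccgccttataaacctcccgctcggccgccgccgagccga
Jund: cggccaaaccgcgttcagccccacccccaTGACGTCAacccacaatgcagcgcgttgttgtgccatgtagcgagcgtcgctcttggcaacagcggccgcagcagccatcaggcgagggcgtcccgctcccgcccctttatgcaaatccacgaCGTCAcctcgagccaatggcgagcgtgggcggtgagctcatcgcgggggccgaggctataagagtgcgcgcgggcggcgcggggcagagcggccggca

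Motifs were searched on both strands. The Jund promoter held the full element TGACGTCA at position -221 (counted from the start, the first base of the match), which contains a TGACG match on each strand, and a further TGACG match at -98. The Cebpb promoter held 3 matches of TGACG, at -234, -107 and -61, and none of TGACGTCA. TGACTCA was found in neither run. TGACG occurred in 18.2% of 33469 promoters of the same length, TGACGTCA in 1.59% and TGACTCA in 4.05%. In all, 0.813% of promoters held 3 or more TGACG matches, as both of these did, with both strands of TGACGTCA counted in Jund. The runs were 80.0% (Cebpb) and 68.4% (Jund) G or C, and the promoters behind these shares were not matched for base content. Both promoters also held TATAA, at -34 and -33 on opposite strands in Cebpb and at -42 in Jund, and that of Jund held CCAAT at -86. TATAA occurred in 24.0% and CCAAT in 34.0% of promoters. These are matches of letters and do not show binding. In GRCr8 the transcribed genes lie at chr3:176817005-176818436 (Cebpb), chr16:18768093-18769771 (Jund), chr5:115009900-115012993 (Jun) and chr6:110852188-110855054 (Fos). Which parts of these transcripts the spotted probes cover is not stated in the sources used here.

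Averaged over 24, 48 and 72 h after hemorrhage, all 4 transcripts were lower than in sham lungs, while by single late time only Jun at 24 h and Jund and Fos at 72 h passed. In that mean Jun fell by 0.78 ± 0.18 on the log2 scale (SE, 9 arrays against 5), Jund fell by 0.99 ± 0.26, Fos fell by 0.68 ± 0.19 and Cebpb fell by 0.86 ± 0.27. These are 1.71-fold, 1.99-fold, 1.60-fold and 1.82-fold lower levels. The adjusted p-values of limma's moderated test, with Benjamini-Hochberg adjustment over 6112 probes, were 0.0110, 0.0197, 0.0306 and 0.0483, so that 4 of 4 members were called lower at an adjusted p under 0.05. Of all probes 5.1% were called lower in that comparison. The median difference of the 4 genes was -0.82, beside 0.03 over all probes, which centring each array on its median holds near 0. The genes were chosen with earlier results of these data known, so that this count is a description of them and not a separate test. Leaving out sham replicate 1 took Jund to -0.90 (adjusted p = 0.065) and Cebpb to -0.71 (adjusted p = 0.156), and kept the calls of Jun and Fos. With the 2 arrays left out put back, the late differences of Jun, Jund, Fos and Cebpb were -0.76, -0.86, -0.67 and -0.89, and each passed. In a fit of only the sham and late arrays 2 of 4 passed, Jun and Jund, while Fos (adjusted p = 0.0574) and Cebpb (adjusted p = 0.0924) did not. With the control arrays in place of sham 2 of 4 passed, Jund and Fos.

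**Figure D1:**
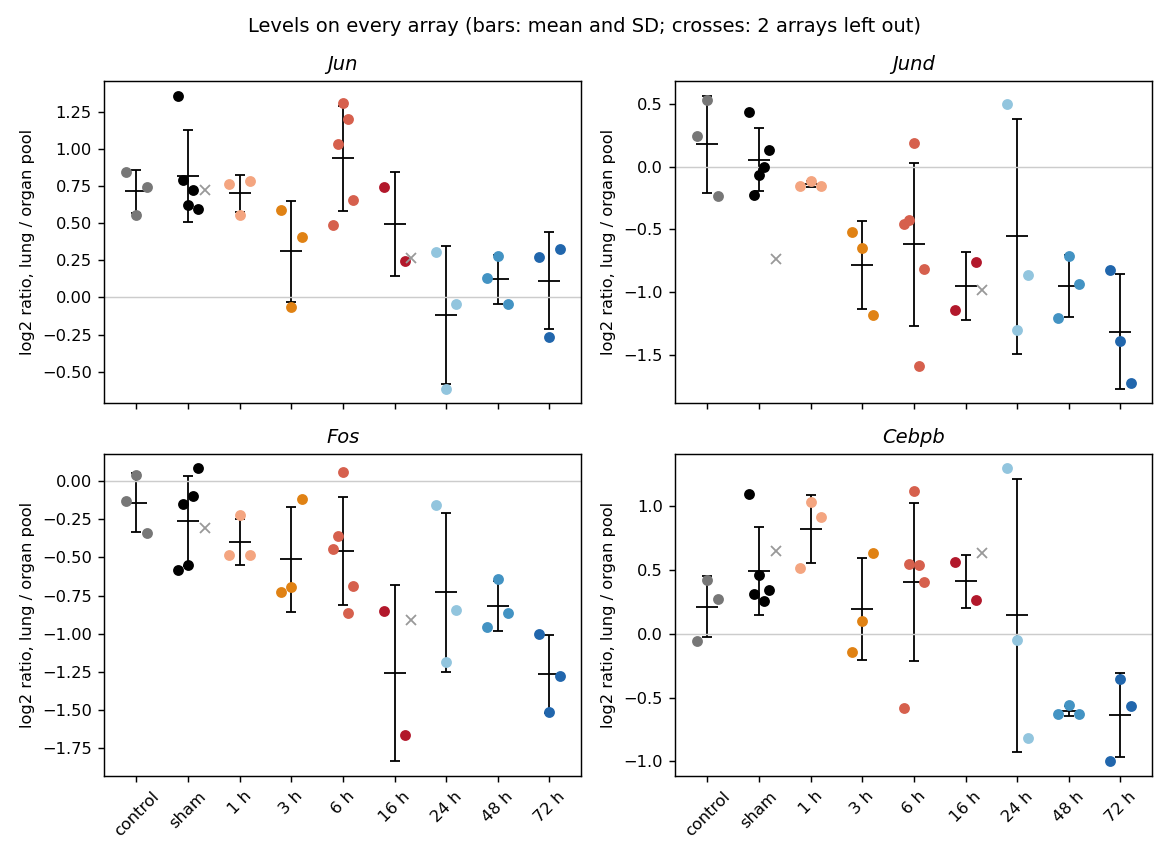
Log2 ratio of lung to organ pool for Jun, Jund, Fos and Cebpb on every array (y axis), by group (x axis), with bars for the mean and SD of the arrays used and crosses for the 2 arrays left out. The 9 late arrays of Jun all lie under the lowest sham array, while 24 h replicate 1 lies above every sham array for Jund (0.49) and Cebpb (1.30).

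Jun encodes the founding Jun protein, a strong transactivator that can also pair with itself. In control lungs its log2 ratio was 0.84, 0.56 and 0.74, and in the 5 sham lungs 1.36, 0.79, 0.62, 0.72 and 0.59 (mean 0.82 ± 0.31, SD, n = 5). Sham replicate 1 was the high value and the other 4 sham arrays lay within the span of the controls. Early after bleeding Jun read 0.76, 0.55 and 0.78 at 1 h, 0.59, -0.06 and 0.41 at 3 h, and 0.49, 1.03, 1.31, 1.20 and 0.66 at 6 h. The 1 h and 6 h values overlapped the sham values, and the 3 h values lay under the lowest sham array, the highest of them by less than 0.01. The lowest was 3 h replicate 2, the array that stood apart. At 16 h the values were 0.74 and 0.24, at 24 h 0.31, -0.61 and -0.05, at 48 h 0.13, 0.28 and -0.05, and at 72 h 0.28, -0.26 and 0.32. Each of the 9 late values was below all 8 unbled values, the highest late value being 0.32 and the lowest unbled value 0.56. For 2.14% of all probes the late arrays lay wholly below the sham arrays. No share of probes was counted against all 8 unbled arrays, here or for the other genes below.

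Against sham, Jun fell by 0.93 ± 0.24 at 24 h (3 arrays against 5, limma adjusted p = 0.0317), the only single time at which it was called, beside 2.65% of probes called lower at that time. That call ended without 24 h replicate 2 (-0.69, adjusted p = 0.128), without 24 h replicate 3 (-0.97, adjusted p = 0.0977) and without sham replicates 1, 3 or 5 (-0.80, -0.94 and -0.96, adjusted p = 0.0742, 0.0583 and 0.05). The differences at 48 h (-0.70 ± 0.24, adjusted p = 0.147) and 72 h (-0.71 ± 0.24, adjusted p = 0.08) were nearly as large and did not pass. Over the 3 late times together, the adjusted p of Jun stayed under 0.05 in each of the 14 fits that left out 1 array, with 0.0482 as the highest. With the 3 control arrays in place of sham its late difference was -0.67 (adjusted p = 0.0562). An exact two-sided permutation test of the 9 late against the 5 sham arrays gave an unadjusted p = 0.000999 for Jun, the smallest that this design allows. The joint limma test of any time against sham called Jun (adjusted p = 0.0369, lost in 10 of 27 fits without 1 array), beside 5.66% of all probes, and Jund, Fos and Cebpb had 0.0895, 0.0656 and 0.0697.

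Jund encodes the most steadily transcribed Jun protein. Its control values were 0.24, 0.53 and -0.23, and its sham values 0.43, -0.23, -0.07, -0.00065 and 0.14 (mean 0.06 ± 0.25, SD, n = 5). At 1 h the 3 arrays lay close together at -0.16, -0.11 and -0.15, within the sham range. From 3 h on most Jund values were under that range: -0.52, -0.65 and -1.18 at 3 h and -1.14 and -0.76 at 16 h were all below the lowest sham array. The 6 h arrays were scattered, with -0.46, -0.43, 0.19, -1.59 and -0.81, and 4 of the 5 lay below every sham array. The 24 h values were 0.49, -1.30 and -0.86, those at 48 h -1.20, -0.71 and -0.93, and those at 72 h -0.82, -1.39 and -1.72. Thus 8 of 9 late arrays were below all unbled arrays, and the exception, 24 h replicate 1, was above every sham array.

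Against sham, Jund fell by 1.37 ± 0.34 at 72 h, a 2.58-fold lower level (3 arrays against 5, limma adjusted p = 0.0218). Fos passed at the same time, and 3.83% of probes were called lower there. The Jund call at 72 h ended without 72 h replicate 2 (-1.33, adjusted p = 0.101) or replicate 3 (-1.16, adjusted p = 0.167). Earlier differences were -0.84 ± 0.34 at 3 h (adjusted p = 0.154), -0.67 ± 0.30 at 6 h (adjusted p = 0.228), -1.00 ± 0.39 at 16 h (adjusted p = 0.256) and -1.00 ± 0.34 at 48 h (adjusted p = 0.138), none of which passed. The 24 h difference of -0.61 ± 0.34 (adjusted p = 0.331) held the high replicate 1, and the 1 h difference of -0.20 had an interval from -0.90 to 0.51. Averaged over the 7 times, Jund differed from sham by -0.81 ± 0.23 (limma adjusted p = 0.0507), and 17 of the 22 bled arrays lay below every sham array. None of the 4 genes was called in that comparison, beside 3.4% of all probes. Jund, so near the threshold, passed there under 6 alternatives, among them no centring (-0.87, adjusted p = 0.0247), and in 5 of 27 fits without 1 array, with the smallest adjusted p without 24 h replicate 1 (-0.89, 0.0145).

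Fos encodes the partner that binds DNA only as a dimer with a Jun protein. Its control values were -0.13, 0.04 and -0.34, and its sham values -0.59, -0.15, -0.55, -0.10 and 0.08 (mean -0.26 ± 0.29, SD, n = 5). The 1 h values of -0.49, -0.23 and -0.48 all fell within the sham range, and the interval of the 1 h difference was -0.66 to 0.38. Fos then read -0.73, -0.70 and -0.12 at 3 h and -0.45, -0.36, 0.06, -0.87 and -0.69 at 6 h. These overlapped the sham values. At 16 h both arrays used were low, at -0.85 and -1.67. The late values were -0.16, -1.19 and -0.84 at 24 h, -0.96, -0.64 and -0.87 at 48 h, and -1.00, -1.51 and -1.27 at 72 h, so that all late arrays but 24 h replicate 1 lay below every unbled array.

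Against sham, Fos fell by 1.00 ± 0.25 at 72 h, to a 2.00-fold lower level (3 arrays against 5, limma adjusted p = 0.0221). That call ended without 72 h replicate 2 (-0.88, adjusted p = 0.137) or replicate 3 (-0.99, adjusted p = 0.112). The difference at 16 h was as large, -1.00 ± 0.29, but rested on 2 arrays and did not pass (adjusted p = 0.159), beside 4 probes called in all at 16 h, 0.0654% of those tested. Differences at 24 h (-0.47 ± 0.25) and 48 h (-0.56 ± 0.25) did not pass either (adjusted p = 0.307 and 0.264). The late call of Fos was lost in 7 of the 14 fits that left out 1 array, with adjusted p from 0.00947 to 0.0879. An exact two-sided permutation test of late against sham arrays gave an unadjusted p = 0.00699 for Fos and p = 0.00799 for Jund.

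Cebpb encodes a factor that pairs with other C/EBP proteins. Control lungs read -0.05, 0.42 and 0.28, and sham lungs 1.10, 0.32, 0.46, 0.26 and 0.34 (mean 0.49 ± 0.35, SD, n = 5). At 1 h the values of 0.52, 1.03 and 0.91 were the highest group mean of the series for this gene, and the difference of 0.33 ± 0.35 (95% interval -0.40 to 1.05) did not pass. Only sham replicate 1, at 1.10, was above them, and all 3 lay above the other 4 sham arrays. At 3 h Cebpb read -0.14, 0.10 and 0.63, at 6 h -0.58, 0.55, 1.12, 0.54 and 0.41, and at 16 h 0.56 and 0.26. The 6 h values thus ran from below to above the sham range. The 24 h arrays differed most among themselves, at 1.30, -0.05 and -0.82 (SD 1.07). By contrast, the 48 h values of -0.63, -0.56 and -0.63 were nearly equal (SD 0.04), and those at 72 h were -1.00, -0.35 and -0.56. All 6 arrays at 48 and 72 h were below every unbled array.

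Cebpb differed from sham by -0.35 ± 0.35 at 24 h (3 arrays against 5, limma adjusted p = 0.63), by -1.10 ± 0.35 at 48 h (adjusted p = 0.111) and by -1.13 ± 0.35 at 72 h (adjusted p = 0.0549), none of which passed. Over the fits that left out 1 array the 24 h difference ran from -0.93 to 0.13, the value without 24 h replicate 3. Its late call was lost in 13 of the 14 fits that left out 1 array. The exception was the fit without 24 h replicate 1, in which the late difference was -1.05 (adjusted p = 0.00469). Sham replicate 1 bears on this gene in particular, since the paired Cebpb spots on that array read -0.18 and 2.38. Leaving that spot pair out gave a late difference of -0.71 (adjusted p = 0.107), and with the 3 control arrays in place of sham it was -0.58 (adjusted p = 0.253). An exact two-sided permutation test of late against sham arrays, with sham replicate 1 included, gave an unadjusted p = 0.032 for Cebpb. The median gap between paired spots was 0.07 for Jun, 0.14 for Jund, 0.08 for Fos and 0.07 for Cebpb. Only that 1 pair of Cebpb differed by more than 1 log2 unit. The largest gap of Jund, 0.87, was also on sham replicate 1.

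**Figure D2:**
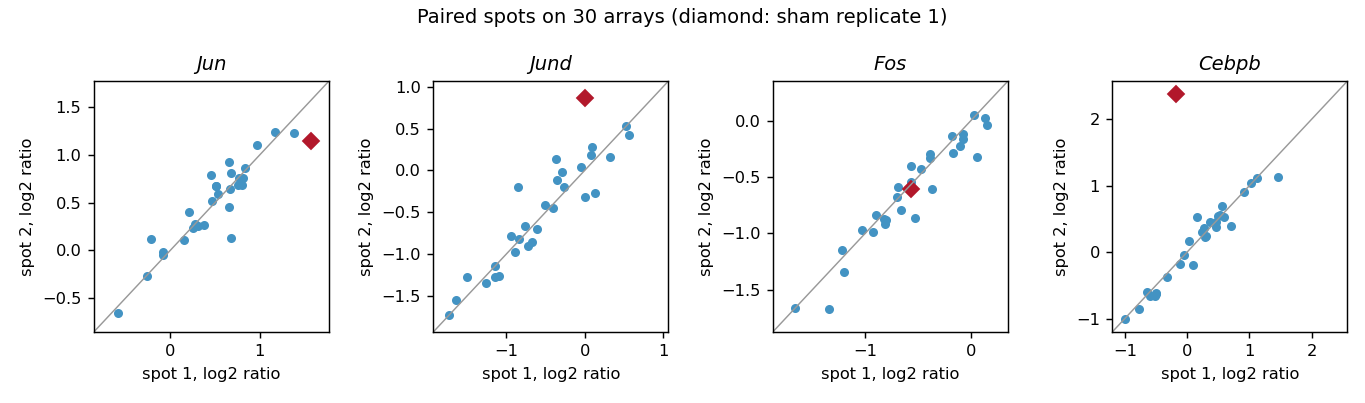
Log2 ratio of the first spot (x axis) against the second spot (y axis) of each gene on the 30 arrays, with the line of equality and a diamond for sham replicate 1. Most points lie near the line, and the farthest from it is Cebpb on sham replicate 1, whose spots read -0.18 and 2.38. The largest gap of Jund was on the same array, with spots at 0.0 and 0.87.

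The separation of the arrays from sham was read gene by gene at each time, with no test between genes. At 3 h, when all 4 differences were below 0 and none passed, the arrays of Jun and Jund lay wholly below the sham range and those of Fos and Cebpb did not, while 5.09% of all probes lay wholly below. At 16 h this held for Jund and Fos, beside 11.4% of probes, and at 24 h for Jun, beside 6.68%. At 48 h and again at 72 h it held for all 4 genes, beside 8.07% and 9.18% of probes. With 3 arrays against 5, an exact permutation test cannot go below p = 0.0357, and with 2 against 5 not below 0.0952. By adjusted p, 0 of the 4 passed at 1, 3, 6, 16 and 48 h, Jun passed at 24 h, and Jund and Fos at 72 h. At 1 h and 6 h no probe of the array was called by limma, with 667 and 1147 probes at an unadjusted p under 0.05, and at 3 h and 48 h 2.98% and 1.18% were called. The median difference of the 4 genes from sham was -0.13 at 1 h, -0.40 at 3 h, -0.14 at 6 h, -0.66 at 16 h, -0.54 at 24 h, -0.85 at 48 h and -1.07 at 72 h. That of all probes, which centring each array on its median holds near 0, stayed between -0.01 and 0.04. These times share the same sham arrays.

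**Figure D3:**
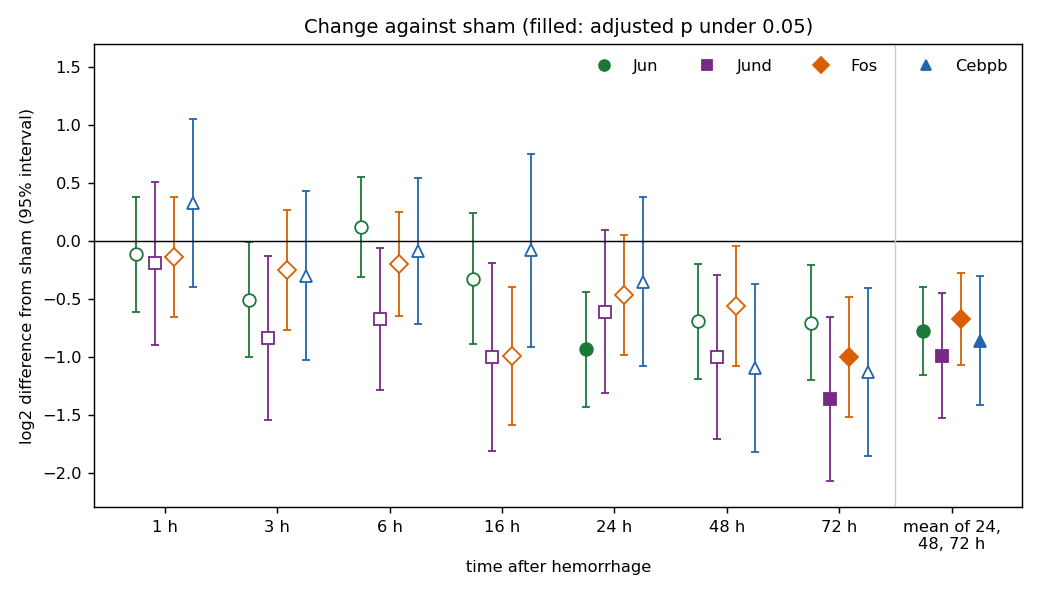
Log2 difference from sham (y axis) of each gene at each time and for the mean of 24, 48 and 72 h (x axis), with 95% intervals of the limma fit and filled symbols for an adjusted p under 0.05. Filled symbols are Jun at 24 h, Jund and Fos at 72 h, and all 4 genes for the late mean.

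Ordered by group mean, Jun was highest at 6 h (0.94 ± 0.35), followed by sham, control, 1 h, 16 h, 3 h, 48 h and 72 h, and lowest at 24 h (-0.12 ± 0.46). Jund ran from control (0.18 ± 0.38) through sham, 1 h, 24 h, 6 h, 3 h, 16 h and 48 h to 72 h (-1.31 ± 0.45). Fos ran from control (-0.14 ± 0.19) through sham, 1 h, 6 h, 3 h, 24 h, 48 h and 16 h to 72 h (-1.26 ± 0.25). The order of Cebpb was 1 h (0.82 ± 0.27), sham, 16 h, 6 h, control, 3 h, 24 h, 48 h and 72 h (-0.64 ± 0.33). For each of the 4 genes, the ranges of every 2 neighbours in this order overlapped. Instruments alone were not followed by a difference that passed: sham minus control was 0.10 for Jun, -0.12 for Jund, -0.12 for Fos and 0.28 for Cebpb, with intervals of up to 0.83 below or 1.01 above 0, and no probe of the array was called by limma (291 at an unadjusted p under 0.05).

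Early and late bled lungs were also compared directly, so that the sham arrays enter the estimate of the spread but not the difference. The mean of 1, 3 and 6 h exceeded that of 24, 48 and 72 h by 0.61 ± 0.15 for Jun (11 arrays against 9, limma adjusted p = 0.0168) and by 0.84 ± 0.22 for Cebpb (adjusted p = 0.0235). These are 1.53-fold and 1.79-fold higher early levels, and 2 of 4 members were called higher beside 4.43% of all probes. Fos was 0.48 ± 0.16 higher early (adjusted p = 0.0623) and Jund 0.42 ± 0.21 (adjusted p = 0.219), neither of which passed. The call of Cebpb ended without 24 h replicate 3 (0.68, adjusted p = 0.0589) and in a fit of only the early and late arrays (adjusted p = 0.0606), and that of Jun held in both. Of the 12 lung markers 9 were higher early and 2 were called. Between 24 and 72 h none of the 4 genes passed, beside 0.524% of probes, with Jun 0.23 ± 0.27 higher at 72 h and Jund, Fos and Cebpb at -0.76 ± 0.38, -0.53 ± 0.28 and -0.78 ± 0.39.

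Markers of lung cells also moved in the late mean against sham, where 5.1% of all probes were called lower and 2.7% higher. Of 12 measured lung markers 11 were lower late than in sham lungs and 3 were called: Sftpb (surfactant protein B) at -1.26 ± 0.24, Scgb1a1 (the club cell secretory protein) at -1.75 ± 0.42 and Akap5 at -0.65 ± 0.18. The median of the lung markers was 1.14 to 2.12 on sham arrays, 0.78 to 1.73 on late arrays and 0.87 to 0.91 at 72 h. Of 9 leukocyte markers, Ptprc (CD45) was called lower at -1.07 ± 0.18, with list medians of 0.13 to 0.53 on sham and -0.29 to 0.66 on late arrays. Of 8 neutrophil markers, Mmp8 (neutrophil collagenase) rose by 3.02 ± 0.53 and S100a9 (a calprotectin subunit) by 2.25 ± 0.54, with list medians of 0.23 to 0.55 and 0.19 to 1.26. Mmp8 had a spot at or below a linear ratio of 0.05, the value taken here as the floor, on 2 arrays. On 24 h replicate 1, where Jund and Cebpb were high, the neutrophil median was 1.26, the highest of the 30 arrays, and the lung median was 1.64. The medians of erythroid markers were -0.92 to 0.11 on sham and -0.22 to 0.21 on late arrays, of endothelial markers -0.03 to 0.39 and 0.02 to 1.03, and of liver markers -1.21 to -0.61 and -1.79 to 0.19. Of 6 erythroid markers Rhag (1.39 ± 0.28) was called higher late and Gata1 (-0.96 ± 0.28) lower, of 3 endothelial markers Kdr (0.71 ± 0.19) higher and Plvap (-1.02 ± 0.25) lower, and of 15 liver markers Apoa1 (1.17 ± 0.36) and Fgb (0.84 ± 0.26) higher. The part of these cell types in the changes of the 4 genes was not tested.

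Across the 30 arrays the 4 genes varied together to different degrees. Pearson's r was 0.74 between Jund and Fos, 0.59 between Jun and Cebpb, 0.54 between Jun and Fos and between Jund and Cebpb, 0.51 between Fos and Cebpb and 0.48 between Jun and Jund. Once each group's mean was removed, the values were 0.53 for Jund and Fos, 0.46 for Jun and Cebpb and 0.30 to 0.35 for the other pairs. These are descriptions over arrays that share the reference pool and the centring. On the plot of Fos against Jund, the late lungs other than 24 h replicate 1 lie at the low end of both axes, while 3 h replicate 3 combines a low Jund (-1.18) with a Fos of -0.12.

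**Figure D4:**
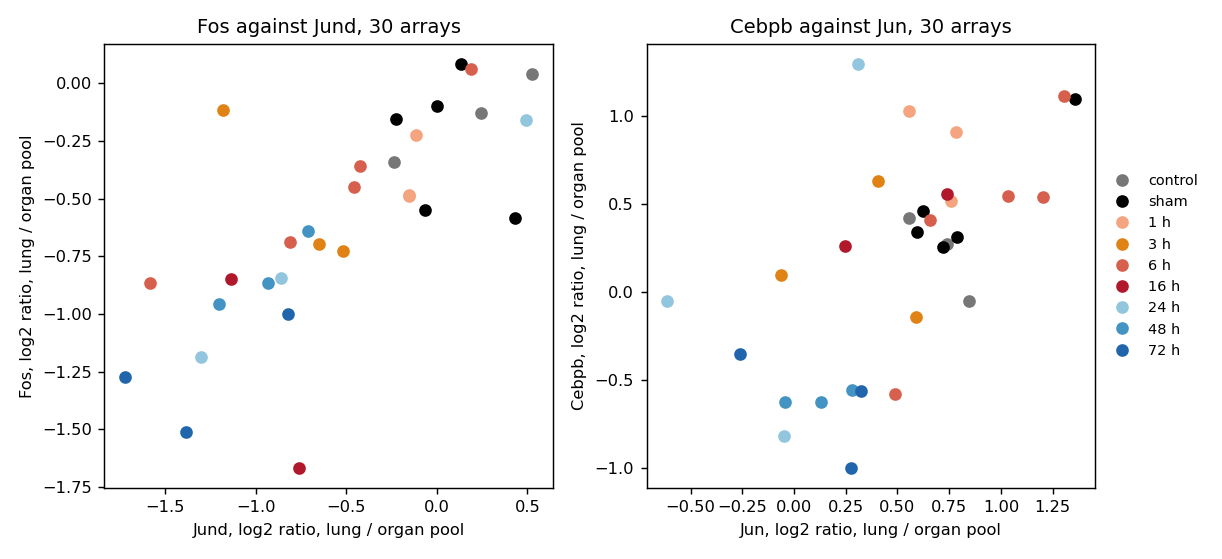
Fos against Jund (left) and Cebpb against Jun (right), log2 ratios of lung to organ pool on the 30 arrays, coloured by group. Late lungs gather at the lower left of both panels, with 24 h replicate 1 apart at a Cebpb of 1.30.

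The probes with the pattern most like each gene were ranked by Pearson's r over the 30 arrays among 5121 probes with a single symbol, whose median r with each of the 4 genes was between -0.02 and 0.0040. Jun was most like Ptgs2 (r = 0.89), the inducible cyclooxygenase, then Btc (betacellulin, 0.86) and Mpp2 (0.84). Ptgs2 read 1.37 ± 0.35 in sham lungs, 0.28 ± 0.31 at 3 h, 1.36 ± 0.52 at 6 h and 0.16 ± 0.70 at 24 h, with the lowest mean at 24 h and a 6 h mean near that of sham, as for Jun. With group means removed, its r with Jun was 0.79. Jund was most like Ostf1 (0.82), Rab7a (0.80), a small GTPase of late endosomes, and Khk (0.80), which encodes ketohexokinase. Fos was most like Chrna9 (0.83), Septin5 (0.78) and Ddx39b (0.78), and Cebpb like Ctss (cathepsin S, a protease of antigen-presenting cells, 0.81), Trpc1 (0.75) and Hsd3b7 (0.75). Ctss read 0.57 ± 0.33 in sham lungs, -0.24 ± 0.07 at 48 h and -0.62 ± 0.21 at 72 h.

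Other genes of the AP-1 and C/EBP families were mostly not called. Of 22 measured, 1 was called lower late and 0 higher, namely Fosl1 (Fra-1, a Fos relative without a transactivation domain), at -0.74 ± 0.20 (limma adjusted p = 0.0222), a call lost in 4 of the 14 fits without 1 array. Of all probes 5.1% were called lower and 2.7% higher late. The median difference of the 22 was 0.06, beside -0.82 for the 4 genes, and 12 of the 22 lay above 0. The 4 genes and the list were chosen with earlier results of these data known. These medians are therefore descriptions, and whether the fall was particular to the 4 genes was not tested. Junb had a mean of 0.23 in sham lungs and of 0.61, 0.30 and -0.05 at 24, 48 and 72 h. Its highest group mean was 0.92 at 1 h, with arrays from 0.37 to 1.72, beside -0.07 to 0.59 on sham arrays. No probe of the array was called at 1 h. Fosl1 was also called at 24 h, with -1.19 ± 0.26 (adjusted p = 0.0121), and at 3 h Batf3, a dimer partner of Jun proteins in dendritic cells, was called at -0.91 ± 0.24 (adjusted p = 0.0384). That call was lost in 5 of 8 fits without 1 array, and without 3 h replicate 3 the difference was -0.51 (adjusted p = 0.124). Batf3 was the only 1 of the 22 called between early and late lungs, with an early minus late difference of -0.51 ± 0.15 (adjusted p = 0.0355), lost in 11 of 20 such fits.

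Upstream, 27 MAP kinase pathway and serum response genes were measured. In the late mean 1 was called, Hras (a GTPase above the MAP kinases), at -0.80 ± 0.23 (limma adjusted p = 0.0324, lost in 9 of the 14 fits without 1 array), beside 5.1% of all probes called lower, and the median of the list was -0.11. Early against late, 5 were called higher and 1 lower, beside 4.43% and 2.68% of all probes. Higher early were Map2k2 (MEK2) by 0.55 ± 0.13, Map3k8 by 0.77 ± 0.21, the coactivator Crebbp by 0.53 ± 0.15, Map3k12 by 0.62 ± 0.19 and Dusp1, a phosphatase that switches MAP kinases off, by 0.80 ± 0.24. Map2k1 (MEK1) differed the other way, by -0.61 ± 0.18. Their adjusted p-values ran from 0.0143 for Map2k2 to 0.0454 for Map3k12. Of 20 fits without 1 array the call was lost in 0 for Map2k2, 4 for Map3k8, 7 for Crebbp, 11 for Dusp1, 13 for Map3k12 and 14 for Map2k1. At 72 h Hras was lower, at -1.11 ± 0.30, and Men1, whose product menin binds JunD, was higher, at 1.11 ± 0.32 (adjusted p = 0.0314 and 0.0428), beside 3.83% of all probes called lower and 2.05% higher. Hras lost that call in 5 of 8 fits without 1 array and Men1 in 6. At 3 h Map2k1 was lower, at -1.10 ± 0.30 (adjusted p = 0.0421), a call lost in 6 of 8 such fits, and without 3 h replicate 3 the difference was -0.63 (adjusted p = 0.139).

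Of 42 other immediate early genes 4 were called lower late and 0 higher, beside 5.1% and 2.7% of all probes. They were Ptgs2 at -1.00 ± 0.23 (limma adjusted p = 0.00963), Fosl1, Rhob (a GTPase of endosomes) at -0.69 ± 0.20 and Homer1 (a scaffold of glutamate receptors) at -0.65 ± 0.20. Ptgs2 kept its call in all 14 fits without 1 array, while Rhob lost it in 6 and Homer1 in 11. The median of the 42 was 0.06, and 22 lay above 0. Some genes, among them Fosl1, Ptgs2, Dusp1 and Junb, stand in 2 of the lists. At 1 h, the first time sampled, 0 of 42 were called, beside 0 of all 6112 probes, and the list median was -0.12. The smallest p there belonged to Dusp1 at 1.20 (adjusted p = 0.293) and Klf2 at -1.06. Rhob and Ptgs2 were called at 3 h (-0.99 ± 0.26 and -1.09 ± 0.30) and at 24 h (-1.09 ± 0.26 and -1.22 ± 0.30), the times of the lowest Ptgs2 means. At 3 h Rhob lost its call in 5 and Ptgs2 in 6 of 8 fits without 1 array, and at 24 h Rhob in 2 and Ptgs2 in 4. Gadd45g was lower at 72 h (-0.76 ± 0.22, limma adjusted p = 0.0402), a call lost in 7 of 8.

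Of 56 measured textbook targets of AP-1 and C/EBP, 3 were called higher and 3 lower in the late mean, beside 2.7% and 5.1% of all probes, so that the lower count was near the background. Their median difference was 0.02. S100a9 rose by 2.25 ± 0.54, the neutrophil chemokine Cxcl2 by 1.11 ± 0.27 and the T cell growth factor Il2 by 1.13 ± 0.30. Ptgs2, Scgb1a1 and the collagen chain Col1a2 (-0.69 ± 0.18) were lower. S100a9 and Scgb1a1 also stand among the cell markers above, and their late values are the same ones. At 3 h Il2 (2.11 ± 0.39) and Mmp12, the macrophage elastase (2.14 ± 0.49), were higher and Gclm (-1.10 ± 0.29) was lower, with the calls lost in 0, 2 and 6 of 8 fits without 1 array. At 24 h Csf3, which encodes the granulocyte growth factor G-CSF (-1.40 ± 0.38), and Col1a2 (-0.86 ± 0.24) were lower, with the calls lost in 5 and 7 of 8, and without 24 h replicate 3 Csf3 was at -0.92 (limma adjusted p = 0.3). At 48 h Col1a2 was lower, at -0.95 ± 0.24, a call lost in 7 of 8. At 72 h Il2 (1.58 ± 0.39) and the collagenase Mmp13 (0.86 ± 0.25) were higher, and Scgb1a1 (-2.15 ± 0.54) and Gclc, a subunit of the enzyme that starts glutathione synthesis (-1.13 ± 0.34), were lower. Of 8 fits without 1 array these calls were lost in 2 for Il2, 5 for Mmp13, 2 for Scgb1a1 and 6 for Gclc. Early against late, Scgb1a1 (1.38 ± 0.34), Edn1 (endothelin 1, 0.71 ± 0.19) and Sftpa1 (0.83 ± 0.24) were higher, and Gclm (-0.93 ± 0.18) and Mmp13 (-0.58 ± 0.16) were lower. Sftpa1 lost its call in 11 and Mmp13 in 5 of 20 such fits, and the other 3 in 0. At 1 h and 6 h no gene of the 4 lists was called, and neither was any other probe of the array.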

How the data were processed

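In all, 32 rat lung RNA samples were measured on 2-colour spotted arrays against an organ pool. The authors' deposited values are log2 ratios per spot. The sources used here do not state dyes, scanner software or normalization. As linear ratios all deposited values lie within 0.001 of a multiple of 0.01, and a ratio at or below 0.05 was taken as the floor. Ratios were centred on each array's median (-0.38 to 0.06 before) and spots of a probe averaged, which gave 6344 probes. Platform annotation names 1 gene for 5143 of them, several for 7 and none for 1194.

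Groups came from the labels, and sham replicate 2 and 16 h replicate 3 were left out. Differences were tested in 1 limma fit (3.58.1, R 4.3.3, statmod 1.5.0; lmFit and eBayes, two-sided) over 30 arrays and 9 groups, on the 6112 probes measured on 2 or more arrays in each group, with Benjamini-Hochberg adjustment and a threshold of 0.05. All 4 genes had both spots on all 32 arrays, with a lowest linear ratio of 0.29. Single genes were also tested by exact permutation (scipy 1.17.1), without adjustment for the number of tests.

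The members and lists were chosen with earlier results of these data known. The text names every member in every comparison, and from each list the genes called (up to 6), otherwise those of smallest p. Alternatives were no centring, quantile normalization, all 32 arrays, no filter, floor spots left out, only the groups compared, the replicate number as a block, array weights and each array left out. Spot pairs over 2 units apart left out, and control in place of sham, were chosen after seeing the data.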

Additional observations from a re-analysis of the deposited data

Results flagged for a closer look

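Sham replicate 1 lay apart from the other 4 sham arrays for Jun, at 1.36, and for Cebpb, at 1.10. On that array the paired Cebpb spots read -0.18 and 2.38, while those of Jun read 1.57 and 1.14. For Jund and Fos the value of the same array was not set apart, though the Jund spots differed most there, at 0.0 and 0.87. Such a gap is seen by chance in about 1 of 20 groups, and 8 groups were looked at here, with both ends of each.

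The response of Jun and of Cebpb differed between early and late times, by 0.61 ± 0.15 and 0.84 ± 0.22 on the log2 scale in a limma test of the difference (adjusted p = 0.0168 and 0.0235). The same difference of Jund and Fos did not pass.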

How the results depend on the processing

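The replicate numbers in the titles did not pair the arrays: over 94 pairs of equal number in different groups the median correlation of deviations was 0.0026, and 8 of 30 arrays correlated best with their own number. With a replicate block, Fos at 72 h was -1.01 (limma adjusted p = 0.0725), the joint test of Jun had an adjusted p of 0.0833, and Cebpb early against late was 0.86 (adjusted p = 0.0557). Late Fos was -0.69 and late Cebpb -0.97 (limma adjusted p = 0.109 and 0.138), and Jund in sham against control turned to 0.16. Probes called with the replicate block were 69 at 3 h, 3 at 48 h, 127 at 72 h, 112 for the mean of 7 times, 252 late, 257 early against late, 2 for 72 against 24 h and 77 in the joint test. Without the block they were 182, 72, 359, 208, 477, 435, 32 and 346.

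Of the 10 calls of the 4 genes, the joint test of Jun has no direction and the other 9 kept theirs under every alternative run. Each of the 10 passed without centring, with quantile normalization, with all 32 arrays and without floor spots. With only the groups compared in the fit, calls ended for Jun at 24 h (-0.93, limma adjusted p = 0.183), Fos at 72 h (-1.00, 0.0528), late Fos (-0.68, 0.0574), late Cebpb (-0.86, 0.0924) and Cebpb early against late (0.84, 0.0606). With control in place of sham, calls ended for Jun at 24 h (-0.83, limma adjusted p = 0.0523), late Jun (-0.67, 0.0562) and late Cebpb (-0.58, 0.253). Array weights, whose estimation stopped before convergence, ended the call of Jun at 24 h (-0.85, limma adjusted p = 0.0748) and added 13: all 4 genes at 48 h, Jun and Cebpb at 72 h, Fos at 16 h, Jund and Fos for 7 times, Fos early against late, and Jund, Fos and Cebpb jointly. Cebpb at 72 h also passed without centring (limma adjusted p = 0.0384), with quantile normalization (0.0306), without floor spots (0.0499) and with only the groups compared (0.0491). Quantile normalization further added Cebpb at 48 h (limma adjusted p = 0.0462) and jointly (0.0442), Jund for 7 times (0.0401) and Fos early against late (0.0426). No centring added Jund and Fos for 7 times (limma adjusted p = 0.0247 and 0.049) and Cebpb jointly (0.0471). Jund for 7 times also passed without floor spots (limma adjusted p = 0.0472), without distant spot pairs (0.0438) and with control in place of sham (0.0474). Late Cebpb ended without the filter (-0.86, limma adjusted p = 0.0522) and without distant spot pairs (-0.71, 0.107). Cebpb, not called at 6 h and 16 h, changed sign there with array weights (0.074 and 0.023), without distant spot pairs (0.063 and 0.069) and with control in place of sham (0.19 and 0.20). The causes were not tested. For the genes of the 4 lists given as called, 733 alternative values passed and 362 did not, all in the same direction.

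Over fits without 1 array, Jun at 24 h ranged from -1.15 to -0.69, Jund at 72 h from -1.61 to -1.16, Fos at 72 h from -1.13 to -0.88, and the joint adjusted p of Jun from 0.0242 to 0.0635. Late Jund ranged from -1.17 to -0.87, late Fos from -0.77 to -0.59, late Cebpb from -1.05 to -0.70, and Cebpb early against late from 0.68 to 1.03. Ranges that crossed 0 belonged to differences that were not called: Jun at 1 h (-0.17 to 0.017), Cebpb at 6 h (-0.27 to 0.16), at 16 h (-0.23 to 0.069) and at 24 h (-0.93 to 0.13), Jun at 72 against 24 h (-0.019 to 0.44), and sham against control for Jun (-0.031 to 0.17) and Jund (-0.33 to 0.051).

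Counts of probes called also moved. With all 32 arrays they were 29 at 3 h, 106 at 16 h, 118 at 24 h, 8 at 48 h, 189 at 72 h, 187 early against late, 7 for 72 against 24 h and 144 jointly. With array weights they were 329 at 1 h, 738 at 3 h, 350 at 6 h, 195 at 16 h, 910 at 48 h, 920 at 72 h, 994 for 7 times, 1048 late, 880 early against late, 30 for sham against control and 2553 jointly. With only the groups compared they were 1 at 3 h, 0 at 16 h and 24 h, 3 at 48 h, 223 at 72 h, 255 early against late and 0 for 72 against 24 h. With control in place of sham they were 395 at 3 h, 253 at 6 h, 1 at 16 h, 554 at 24 h, 32 at 48 h and 493 for 7 times. Without centring they were 16 at 16 h, 436 at 24 h and 65 for 72 against 24 h. Quantile normalization gave 3 at 6 h and 185 at 48 h, no filter 1 at 16 h, and leaving out distant spot pairs 53 at 6 h, 8 at 16 h and 54 for 72 against 24 h. Over fits without 1 array they ranged from 0 to 3 at 1 h, 45 to 565 at 3 h, 0 to 116 at 6 h, 0 to 20 at 16 h, 29 to 336 at 24 h, 2 to 107 at 48 h and 42 to 482 at 72 h. They ranged from 64 to 374 for 7 times, 291 to 675 late, 223 to 586 early against late, 2 to 232 for 72 against 24 h and 129 to 582 jointly. At 16 h, a fit without 1 array leaves a lone sample, assumed to vary like the other groups.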
